A study of Mus musculus with 12 samples.

Results

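Of 12 islet RNA libraries from NOD mice, the 6 with the highest level of Ptprc were compared with the 6 with the lowest. Ptprc encodes CD45, a tyrosine phosphatase of the surface of nearly all leukocytes, and its RNA is a common measure of immune cells in a tissue. The members were chosen by ranking the libraries on the normalized Ptprc count of the authors' deposited table. The high libraries were IgG 2, IgG 5 and IgG 6 and anti-CD3 1, anti-CD3 4 and anti-CD3 6, and the low ones IgG 1, IgG 3 and IgG 4 and anti-CD3 2, anti-CD3 3 and anti-CD3 5. Each side thus held 3 libraries of each treatment.

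All mice were female wild-type NOD/ShiLtJ animals with normal blood glucose, aged 9 weeks at the start. They received a weekly injection of control IgG or of an antibody against CD3 (2.5 mg/kg), the complex that relays signals of the T cell receptor, for 4 weeks, and islets were isolated with collagenase 2 or 3 days after the last dose. The labels do not say whether a library came from 1 mouse or from pooled mice, so a p-value here covers only differences among libraries, which may be technical. Poly(A) RNA was sequenced in read pairs.

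In NOD mice, T cells, B cells, macrophages and dendritic cells gather around and then within the islets, a lesion called insulitis that precedes the loss of beta cells. Interferon gamma from T cells induces chemokines, antigen-presenting molecules and the checkpoint ligand PD-L1 in islet cells, and promoters that answer to it often hold GAS motifs (TTCNNNGAA). Promoters that answer to type I interferon often hold the ISRE motif, here GAAA, any 2 bases and GAAA again. The extent of the lesion varies widely from mouse to mouse and from islet to islet.

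Ptprc fell into a continuous range with 1 library far above the rest. In the authors' deposited table its normalized count was 2339 in IgG 6, 729 in IgG 2, 594 in IgG 5, 548 in anti-CD3 6, 471 in anti-CD3 1 and 375 in anti-CD3 4. On the low side it was 243 in IgG 1, 176 in IgG 4, 110 in anti-CD3 2, 102 in anti-CD3 5, 70.9 in IgG 3 and 41.3 in anti-CD3 3. The libraries next to the dividing line, anti-CD3 4 and IgG 1, differed by a factor of 1.55, less than IgG 6 differed from IgG 2. Ranking by plain CPM (counts scaled to a common library total), TMM-scaled CPM or CPM of the counts outside exocrine genes gave the same 6 high libraries.

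**Figure D1:**
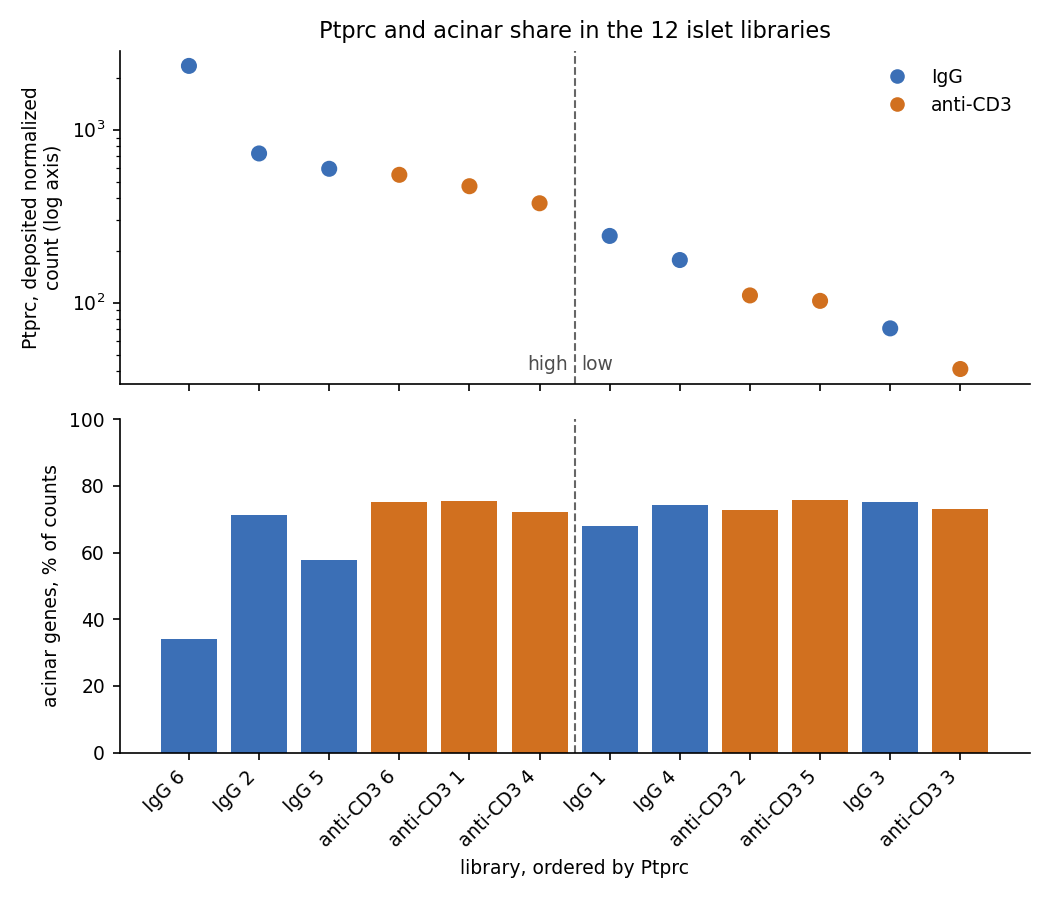
The upper panel plots the deposited normalized count of Ptprc on a log axis for each of the 12 libraries, in descending order, and the lower panel the percentage of counts in the acinar genes, with bars from 0. Ptprc ran from 2339 in IgG 6 to 41.3 in anti-CD3 3, and IgG 6 (34.1%) and IgG 5 (57.8%) had the lowest acinar shares.

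Total counts ran from 10994337 to 19284740 per library. Digestive enzyme genes of the acinar list, from exocrine tissue that comes with isolated islets, took 67.9% to 75.9% of the counts in 10 libraries, 57.8% in IgG 5 and 34.1% in IgG 6, so 2601540 to 10584080 counts were left outside exocrine genes. Islet hormone genes took 0.961% to 3.86% of the counts, and in 11 of the 12 libraries acinar genes took more counts than all other genes together, although the labels name islets. IgG 5 and IgG 6 were both Ptprc-high, and the part of the acinar share in the differences below was not tested. Counts without these libraries are given beside most of the lists that held calls. In bulk RNA, fewer cells of a type and less RNA per cell cannot be told apart.

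Of 49315 genes, 13115 passed the filter on low counts. With treatment as a covariate, 791 genes were higher in the high libraries (6.03% of those tested) and 30 were lower (0.229%) by edgeR's quasi-likelihood test at an adjusted p under 0.05, 821 in all (6.26%). All 6 high libraries lay above all 6 low ones in 311 genes (2.37%) and below them in 44 (0.335%). Because a gene of the same table divided the libraries, these counts describe the 2 sides and are no evidence for any gene. Of the 791 genes, 688 differed at least 2-fold, against 8 of the 30. The median log2 difference over all tested genes was -0.07. Without IgG 5 and IgG 6, 237 genes were higher and 1 was lower.

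Of the 791 genes, 154 were in one of the 19 immune lists and 188 in any list. Of the 242 tested genes in the 19 immune lists, 236 had a positive log2 difference (40.6% of all tested genes did), with a median log2 difference of 1.59. Within the treatments taken apart, 577 of the 791 genes were at least 2-fold higher in both, a count that their choice from the same 12 libraries favours. Across the 13115 genes, high minus low in IgG and in anti-CD3, which share no library, had a Pearson r of 0.65 and a Spearman rho of 0.41. Genes are not independent replicates, and both divisions were made by Ptprc. Tested alone, 56 genes were higher in the 3 high than in the 3 low IgG libraries (0.427%) and 0 in anti-CD3 (0%), where 1161 were at an unadjusted p under 0.05 by edgeR.

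**Figure D2:**
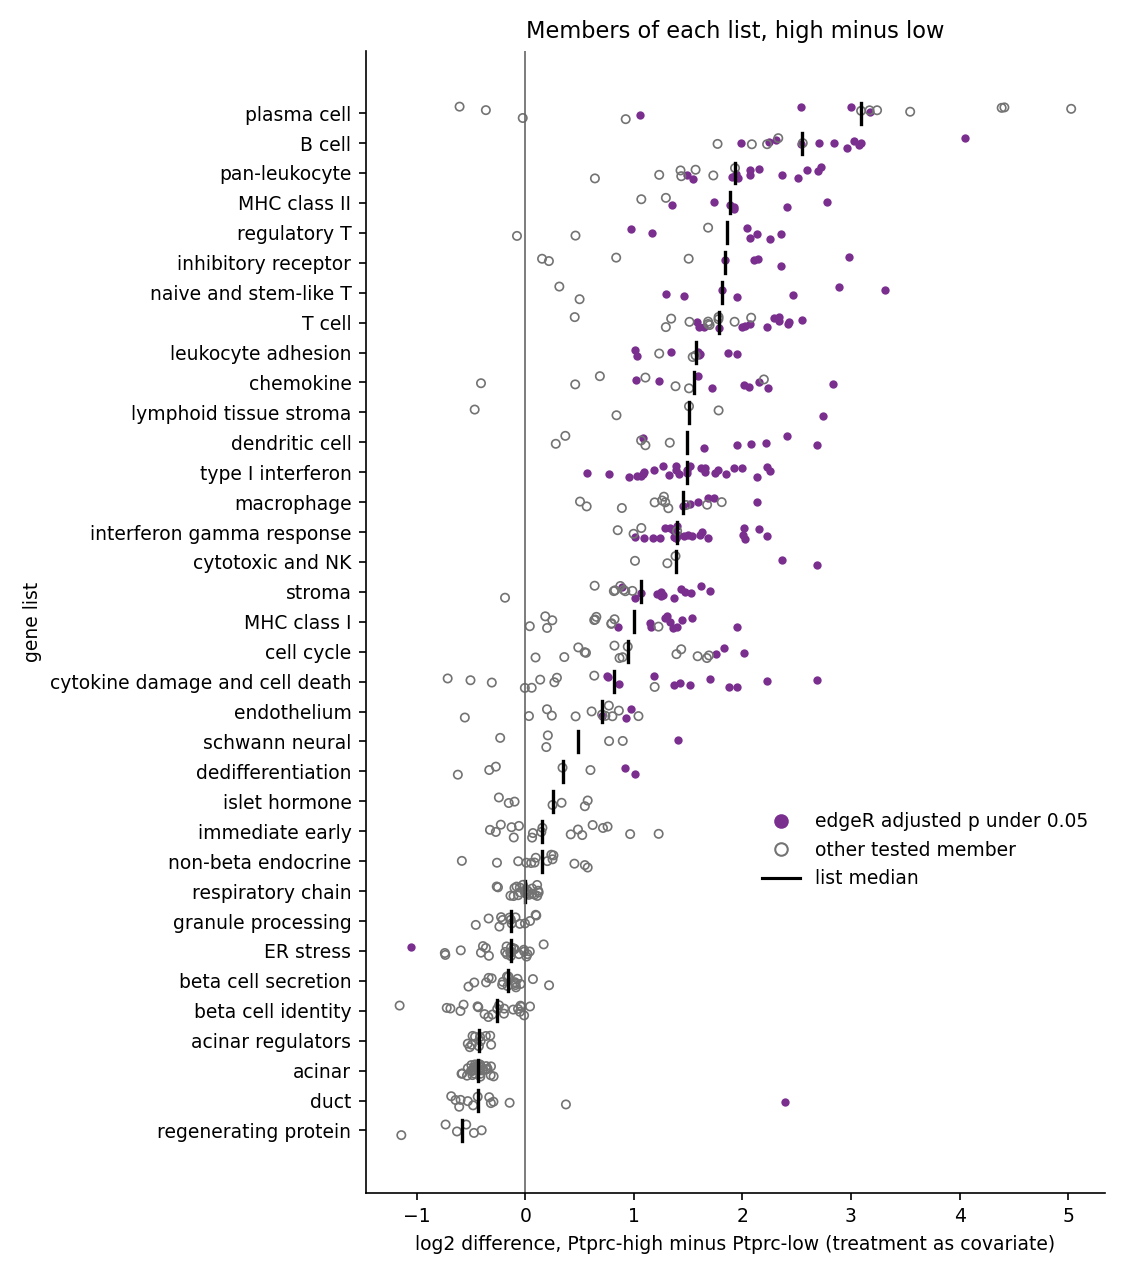
Each point is a tested member of a gene list with at least 5 tested members, placed by its log2 difference between Ptprc-high and Ptprc-low libraries with treatment as covariate. Filled points have an edgeR adjusted p under 0.05 and black bars are list medians, which run from 3.09 (plasma cell) to -0.59 (regenerating protein).

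The promoters of 4 interferon-induced genes are printed here to show what matches to the GAS and ISRE motifs look like. They were chosen after their values were seen, among members of the interferon lists with 1 RefSeq start, a motif match and no overlap between the sides. Each line gives the 250 bases before the start in RefSeq (GRCm38.p6), 5′ to 3′ on the strand of the gene, with matches to GAS or ISRE on either strand in capitals.
Cxcl10, minus strand, chr5:92348890-92349139: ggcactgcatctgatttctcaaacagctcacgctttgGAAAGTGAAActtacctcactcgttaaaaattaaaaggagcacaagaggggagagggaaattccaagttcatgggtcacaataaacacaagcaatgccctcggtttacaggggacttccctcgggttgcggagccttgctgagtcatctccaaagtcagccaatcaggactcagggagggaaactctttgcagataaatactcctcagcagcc
Gbp5, plus strand, chr3:142496684-142496933: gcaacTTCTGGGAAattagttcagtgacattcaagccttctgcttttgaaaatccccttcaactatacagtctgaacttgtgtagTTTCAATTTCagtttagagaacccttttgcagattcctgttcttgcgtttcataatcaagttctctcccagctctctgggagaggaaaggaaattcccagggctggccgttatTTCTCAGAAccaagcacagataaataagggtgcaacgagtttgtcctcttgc
Socs1, minus strand, chr16:10785537-10785786: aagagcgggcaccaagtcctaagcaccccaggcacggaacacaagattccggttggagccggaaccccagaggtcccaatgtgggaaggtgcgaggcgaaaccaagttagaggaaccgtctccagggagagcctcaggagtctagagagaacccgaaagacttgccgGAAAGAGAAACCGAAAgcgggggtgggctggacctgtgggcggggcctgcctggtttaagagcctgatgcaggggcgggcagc
Isg15, minus strand, chr4:156200819-156201068: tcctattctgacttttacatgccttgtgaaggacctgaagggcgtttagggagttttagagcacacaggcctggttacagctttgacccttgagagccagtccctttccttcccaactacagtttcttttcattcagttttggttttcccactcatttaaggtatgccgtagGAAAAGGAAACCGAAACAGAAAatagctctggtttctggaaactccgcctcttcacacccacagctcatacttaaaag

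Cxcl10 had 1 ISRE beginning 213 bases before the start. Gbp5 had 2 GAS matches, beginning 245 and 52 bases before the start, and 1 ISRE at 165. Socs1 had 2 ISRE matches that overlap each other, at 83 and 77 bases, and Isg15 had 3 in a row, at 78, 72 and 66 bases. Over the 300-base windows that also hold the 50 bases after the start, 11 of the 19 matched genes of the interferon gamma list had an ISRE (57.9%) and 9 had a GAS (47.4%). In the type I interferon list the counts were 11 of 19 (57.9%) and 3 of 19 (15.8%). Of all 27025 genes with a window, 3.99% had an ISRE and 9.55% a GAS. Among the 580 matched genes higher in the high libraries the shares were 13.3% and 11.6%, and among the 24 matched lower genes 4.17% and 8.33%. A match is a run of letters and not evidence of binding.

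In the interferon gamma list, 23 of 27 tested members were higher, with a median log2 difference of 1.39 and 27 of 27 positive. In the type I interferon list it was 27 of 27, with a median of 1.49, and 11 of them had no overlap between the sides. Cxcl10, the chemokine that draws CXCR3-bearing T cells, had a lowest, median and highest level of 75.6, 114 and 466 CPM in the high libraries and 18.7, 38.3 and 60.3 CPM in the low ones. The sides did not overlap, and the log2 difference was 2.15 ± 0.44 (SE, n = 6 per side), or 4.45-fold. Isg15, a ubiquitin-like protein induced by type I interferon, was at 27.4, 59.2 and 139 CPM against 9.86, 18.2 and 25.4 CPM, again without overlap, a log2 difference of 1.92 ± 0.34 (SE).

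Other members spanned a like range. Trim30a, an interferon-induced member of the tripartite motif family, differed by 2.26 ± 0.37, Ifit2, which restricts viral RNA, by 2.22 ± 0.42, and the immunity-related GTPase Ifi47 by 2.23 ± 0.39 (log2, SE). Cd274, which encodes PD-L1, was at 35.2, 54.9 and 172 CPM against 7.80, 26.8 and 49.0 CPM, a 2.83-fold difference in which IgG 4 lay within the high range. Gbp2, a guanylate-binding protein, differed by 1.47 ± 0.33 (SE). Of the printed promoters, Gbp5 belonged to a log2 difference of 2.02 ± 0.35 and Socs1, the inhibitor of JAK kinases, to 2.01 ± 0.47 (SE). Without IgG 5 and IgG 6 the list medians were 1.13 and 1.18, with 4 and 6 members past the same threshold.

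RNA of interferon gamma itself was abundant in 1 library alone. Ifng did not pass the filter, with 631 counts in IgG 6, 5 to 14 counts in each of the other 5 high libraries and 0 to 13 in the low ones. No fold is given, since IgG 6 alone supplied most of the 685 counts on the high side.

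Antigen presentation followed. Of 22 tested class I genes 11 were higher, with a median log2 difference of 1.00 and 22 of 22 positive. The invariant light chain B2m was at 207, 472 and 1040 CPM against 140, 175 and 366 CPM, and the classical heavy chain H2-K1 at 104, 146 and 318 against 59.4, 78.4 and 204 CPM. Their log2 differences of 1.23 ± 0.36 and 0.79 ± 0.27 (SE) did not pass the threshold and the sides overlapped. Those that passed included the immunoproteasome subunit Psmb9 at 1.54 ± 0.34 and the non-classical H2-T24 at 1.95 ± 0.41 (SE). Class II genes, which mark B cells, dendritic cells and macrophages, had a median of 1.88, and 7 of 9 were higher. H2-Ab1, a beta chain of the NOD class II molecule, was at 68.0, 148 and 539 CPM against 19.6, 40.2 and 116 CPM, a log2 difference of 1.92 ± 0.43 (SE). H2-Ob, which tempers peptide loading in B cells, differed by 2.78 ± 0.53 (SE) without overlap. Leaving out IgG 5 and IgG 6, 0 of 22 class I and 1 of 9 class II genes passed, with medians of 0.75 and 1.56, and without IgG 6 alone 6 and 2 did.

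The cells behind CD45 were of several lineages. In the pan-leukocyte list, made without Ptprc, 13 of 20 genes were higher and 20 of 20 were positive, with a median log2 difference of 1.93, and 4 had no overlap. Cd53, a leukocyte tetraspanin, was at 10.4, 18.5 and 77.7 CPM against 0.587, 3.54 and 8.72 CPM, a difference of 2.73 ± 0.47 on the log2 scale (SE). The summed level of the 20 genes ran from 229 to 1150 CPM in the high libraries and from 50.1 to 248 CPM in the low ones. IgG 1 was the low library that reached into the high range. Leaving out IgG 5 and IgG 6 gave a median of 1.51 with 5 genes past the threshold.

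B cell genes had a larger median difference than T cell genes. Of 16 B cell genes 11 were higher, 16 were positive and the median log2 difference was 2.55, whereas of 25 T cell genes 14 were higher, 25 were positive and the median was 1.79. Whether the lists differed from each other was not tested. Ms4a1, which encodes CD20, was at 1.08, 4.03 and 28.2 CPM against 0, 0.266 and 1.25 CPM, with a log2 difference of 4.05 ± 0.89 (SE), and IgG 2 fell below anti-CD3 5. Pax5, the factor that holds B cell identity, differed by 3.09 ± 0.64 (SE) without overlap. When IgG 5 and IgG 6 were left out, 1 B cell gene and 4 T cell genes passed, with medians of 1.95 and 1.63, and Ms4a1 differed by 2.43 and no longer passed. Without IgG 6 alone, 7 and 9 passed.

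T cell genes of both main classes were higher. Cd4, the coreceptor of helper T cells, was at 5.23, 7.04 and 30.4 CPM against 0.587, 1.52 and 6.15 CPM (log2 difference 2.23 ± 0.49, SE). Cd8a, the coreceptor of cytotoxic T cells, was at 2.62, 5.15 and 16.02 CPM against 0.168, 1.44 and 4.72 CPM (1.79 ± 0.45, SE). Cd4 overlapped between the sides through IgG 1, and Cd8a through IgG 1 and IgG 4. The invariant chain Cd3e, part of the antibody's target complex, differed by 1.34 ± 0.40 (SE) and did not pass. Cd2, an adhesion receptor of T cells, differed by 2.55 ± 0.60, and Zap70, the kinase downstream of the receptor, by 2.43 ± 0.47 without overlap (SE).

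Genes of T cell subsets often had no overlap between the sides. In the naive and stem-like list 7 of 9 genes were higher and 6 had no overlap, and in the regulatory T cell list 7 of 10 were higher and 5 had no overlap, against 3 of 25 in the T cell list. Cxcr5, the receptor that leads B cells and follicular T cells to follicles, differed by 2.89 ± 0.60 (log2, SE). Foxp3, the master factor of regulatory T cells, was at 1.80, 2.20 and 7.17 CPM against 0.335, 0.634 and 1.33 CPM (2.04 ± 0.39, SE). Ctla4, an inhibitory receptor of regulatory and activated T cells, was at 8.69, 13.6 and 38.5 CPM against 0.671, 3.70 and 4.85 CPM (2.35 ± 0.38, SE). Neither overlapped, and IgG 1 was below the lowest high library in both. In each of these lists 3 genes passed without IgG 5 and IgG 6, with medians of 1.40 (naive and stem-like) and 1.18 (regulatory).

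Cytotoxic genes were scarce. Only 5 of 18 listed passed the filter, of which 2 were higher. Gzmb, which encodes granzyme B, was at 0.822, 3.25 and 20.5 CPM against 0.168, 0.671 and 2.18 CPM (2.69 ± 0.64, SE), with overlap. Klrk1, the activating receptor NKG2D, differed by 2.37 ± 0.43 (SE) without overlap. In the inhibitory receptor list 5 of 9 were higher, with Btla, a lymphocyte checkpoint receptor, at 2.98 ± 0.59 (SE). Of these, 1 cytotoxic and 3 inhibitory receptor genes passed without IgG 5 and IgG 6.

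Plasma cell genes had the largest median of the lists, 3.09, and varied widely among the high libraries. Of 15 genes, 12 were positive and 4 were higher, and without IgG 5 and IgG 6, 1 was, with a median of 2.04. Jchain, which joins secreted antibody chains, was at 12.03, 40.7 and 184 CPM against 0.537, 5.38 and 22.4 CPM, a log2 difference of 3.55 ± 1.01 (SE) that did not pass. The heavy chain genes Ighg1 (5.03 ± 1.85) and Ighg2b (4.41 ± 1.75, SE) did not pass either, and Ighg1 ranged from 0.12 to 302 CPM within the high side.

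Myeloid genes had smaller differences. The macrophage list had 6 of 17 higher, 17 positive and a median of 1.46, and the dendritic cell list 7 of 12, 12 and 1.49. Without IgG 5 and IgG 6, 0 and 1 passed, with medians of 1.08 and 1.20, and without IgG 6 alone 2 and 3 did. Adgre1, which encodes F4/80, was at 2.47, 4.18 and 8.21 CPM against 0.479, 1.68 and 2.43 CPM (1.59 ± 0.35, SE), without overlap. C1qa, a complement subunit made by tissue macrophages, differed by 1.46 ± 0.37, Lyz2, the myeloid lysozyme, by 2.14 ± 0.51, and Itgax, which encodes CD11c, by 1.65 ± 0.34 (SE). Siglech, a marker of plasmacytoid dendritic cells, differed by 2.69 ± 0.73 (SE) at levels of at most 3.29 CPM.

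Differences between list scores of the same library are given as a description, and none was tested. The lists are not limited to leukocytes: Xbp1 of the plasma cell list is also an acinar regulator. In high minus low, 3 of 15 plasma cell and 1 of 10 regulatory T cell genes were negative and the others positive. The part of other cells in these scores was not tested. A score is the mean log2 CPM of a list. The B cell score minus the T cell score ran from -0.49 to 0.29 in the high libraries (median -0.07) and from -1.72 to 0.11 in the low ones (median -0.76). The macrophage score minus the pan-leukocyte score ran the other way, from -0.40 to 0.34 (median -0.17) against 0.06 to 0.91 (median 0.60), and the regulatory T cell score minus the T cell score from 0.15 to 0.81 (median 0.62) against 0.08 to 1.59 (median 1.25). The ranges of the sides overlapped in all 3. Other lists also had a lower median on the high side. Against the T cell score it was 1.03 against 1.42 for the naive and stem-like score. For the inhibitory receptor score it was 0.88 against 1.29, and for the cytotoxic score -0.09 against -0.003. The dendritic cell minus the pan-leukocyte score had medians of -0.19 and 0.10. The B cell minus the pan-leukocyte score went the other way, with -1.43 and -2.10. Medians of the T cell minus the pan-leukocyte score were -1.35 and -1.40, and of the plasma cell minus the pan-leukocyte score 0.08 and 0.10. The plasma cell score minus the B cell score was highest in anti-CD3 6 (3.19) and anti-CD3 3 (3.04), 1 on each side. In the low libraries many of these genes had few counts, and the part of that in these differences was not tested.

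**Figure D3:**
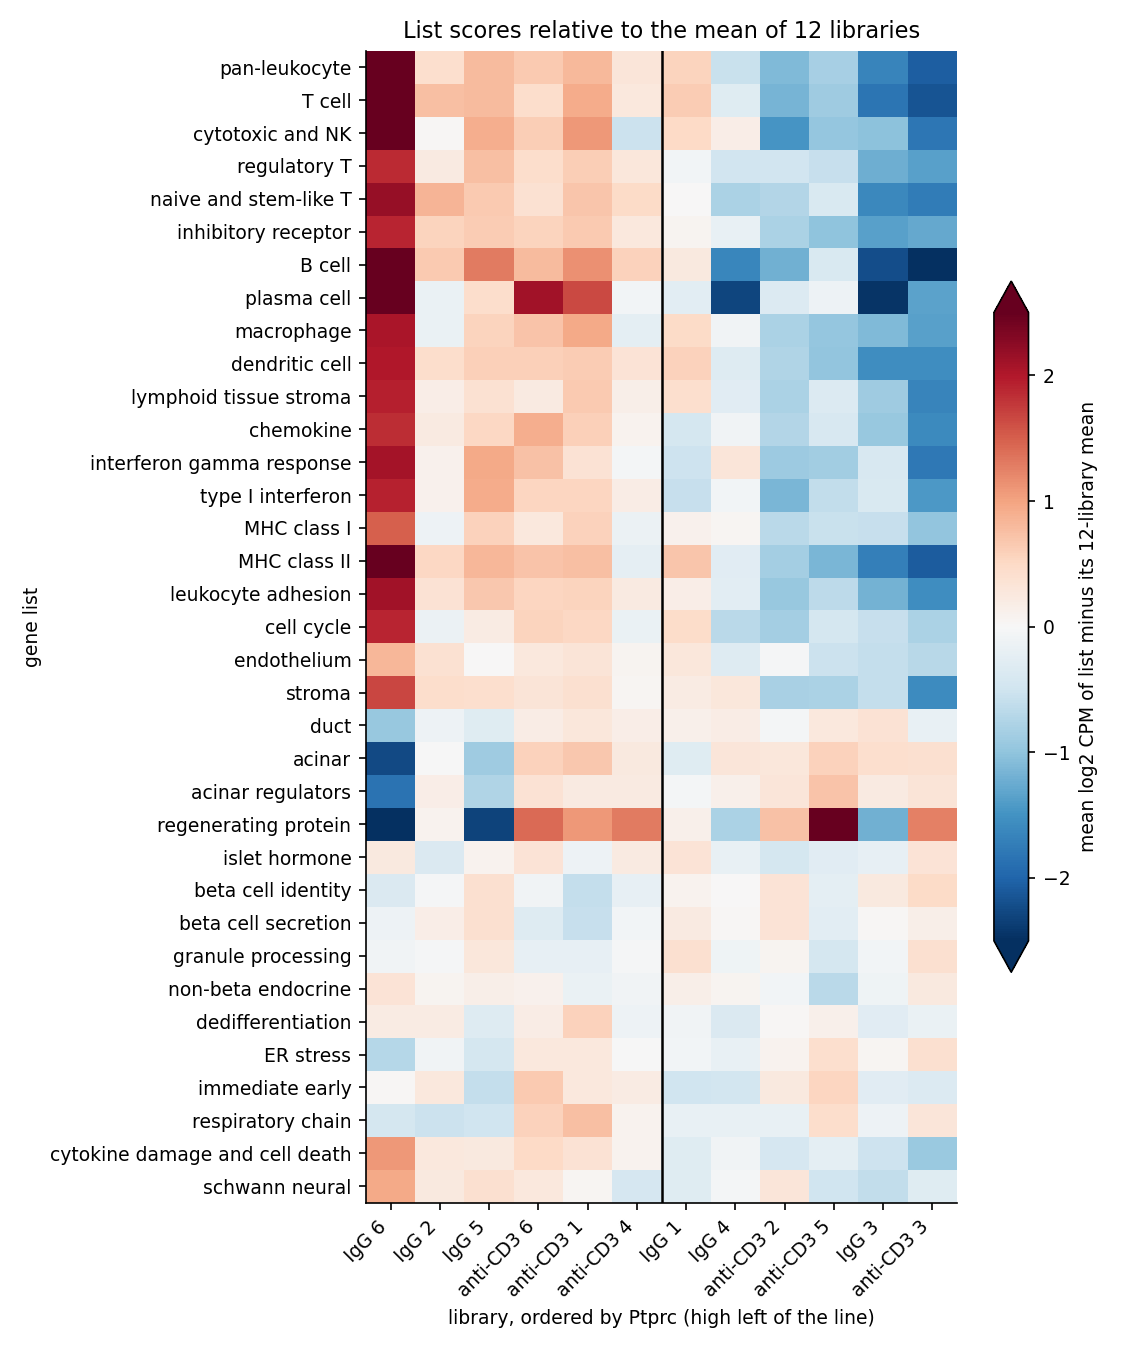
Rows are gene lists with at least 5 tested members, columns the 12 libraries in descending order of Ptprc, and colour the list score (mean log2 CPM) minus its mean over the 12 libraries. The immune rows change from red on the left to blue on the right, with IgG 6 highest, while hormone and beta cell rows stay pale on both sides of the line.

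Chemokines and adhesion molecules were higher with the leukocytes. Of 16 chemokine genes 9 were higher and 15 positive (median 1.55). Cxcl9 differed by 2.02 ± 0.43 and Cxcl11 by 2.83 ± 0.64, both ligands of CXCR3 like Cxcl10, and Ccl4, an inflammatory chemokine of leukocytes, by 2.24 ± 0.43 (log2, SE). Of 11 adhesion genes 8 were higher (median 1.57). Vcam1, the endothelial ligand of the integrin VLA-4, was at 37.9, 49.8 and 171 CPM against 12.7, 15.8 and 26.3 CPM, a difference of 1.95 ± 0.30 on the log2 scale (SE) without overlap. Ackr1, a chemokine-binding receptor of venules, differed by 1.87 ± 0.48 (SE). In each of the chemokine and adhesion lists 3 genes passed without IgG 5 and IgG 6, with medians of 1.16 and 1.17.

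Few markers of organized lymphoid tissue passed the filter on low counts. Cxcl13, the ligand of CXCR5 that forms B cell follicles, was at 2.47, 6.28 and 20.2 CPM against 0.168, 2.50 and 6.47 CPM, a log2 difference of 1.51 ± 0.60 (SE) that did not pass. Ccl19, made by stromal cells of T cell zones, had 23 counts over the 6 high and 2 over the 6 low libraries, and Ccl21a had 0 in all 12, which is below the resolution of these counts. Glycam1 and Madcam1, addressin genes of high endothelial venules named after their values were seen, did not pass the filter, with 2419 against 5 and 200 against 8 counts. IgG 6 held 2228 and 146 of those on the high side. Of the 14 listed genes 5 were tested and 1 was higher, Bst1 (2.74 ± 0.55, SE), which lymphoid stroma and leukocyte precursors share.

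Stromal genes were higher as well, though to a lesser degree. Of 21 genes 13 were higher, 20 were positive and the median was 1.06. Bgn, the matrix proteoglycan biglycan, was at 24.4, 32.4 and 108 CPM against 3.94, 11.5 and 23.02 CPM (1.70 ± 0.30, SE), without overlap. Col1a2, a chain of type I collagen, differed by 1.62 ± 0.33 (SE), and 11 of the 27 tested collagen genes were among the 791. Endothelial genes had 3 of 15 higher and a median of 0.71. A total of 5 stromal genes and 1 endothelial gene passed without IgG 5 and IgG 6, with medians of 1.04 and 0.71. Pecam1, the endothelial CD31, was at 32.5, 46.8 and 70.3 CPM against 18.5, 22.3 and 34.4 CPM (0.93 ± 0.22, SE). Across the 12 libraries the stroma score had a Pearson r of 0.94 with log2 Ptprc, and 0.91 over the 10 libraries without IgG 5 and IgG 6. Libraries share depth and the dilution by exocrine RNA, so this is a description.

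Of the genes in no list, Cd69 (ENSMUSG00000030156, chromosome 6, 129267325 to 129275436 on the minus strand of GRCm38), an early activation receptor that also holds lymphocytes in tissue, had the largest difference among those past the threshold without overlap. It was at 62.6 CPM in IgG 6, 8.84 in IgG 2, 10.2 in IgG 5, 17.8 in anti-CD3 6, 7.44 in anti-CD3 1 and 4.17 in anti-CD3 4. In the low libraries it was at 0.820 CPM in IgG 1, 0.889 in IgG 4, 0.676 in anti-CD3 2, 1.15 in anti-CD3 5, 0.921 in IgG 3 and 0.251 in anti-CD3 3. The sides were separated by a gap from 1.15 to 4.17 CPM, and the log2 difference was 4.47 ± 0.60 (SE), or 22.1-fold. IgG 1, whose leukocyte genes reached into the high range, was among the low ones here. The next were Themis2, a signalling adaptor of B cells and macrophages (3.21 ± 0.57), the T cell and myeloid membrane proteins Ms4a4b (3.07 ± 0.54) and Ms4a4c (2.77 ± 0.52), and the serine protease inhibitor Serpina3g (2.89 ± 0.48, SE). The interferon-inducible Ifi209 (2.89 ± 0.49) and Ifi214 (2.85 ± 0.66), Cpxm1, a carboxypeptidase-like protein (2.87 ± 0.64), and Ppp1r16b, a regulatory subunit of protein phosphatase 1 (2.76 ± 0.42, SE), followed.

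The genes whose levels followed Ptprc most closely over the 12 libraries were not all lymphoid. By Spearman correlation of log2 CPM the first 10 were Gimap8, a GTPase of lymphocytes, Maf, a factor of T cells and macrophages, Ripk3, the kinase of necroptosis, Axl, a receptor kinase of macrophages and stroma, Dock2, Ms4a6b, Fnbp1, Cxcr4, St3gal1 and C4b. Their rho ran from 0.98 to 0.99. C4b, a complement component, was at 27.1, 39.8 and 122 CPM against 5.28, 17.0 and 26.0 CPM, and Cxcr4, the receptor of Cxcl12, at 9.69, 14.4 and 32.5 against 2.01, 4.83 and 7.64 CPM.

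Leukocyte genes and the genes of the 2 interferon lists did not mark the low libraries IgG 1 and IgG 4 alike. IgG 1 exceeded the lowest high library in 16 of 20 pan-leukocyte genes, 22 of 25 T cell genes and 15 of 17 macrophage genes, but in only 5 of 27 interferon gamma and 3 of 27 type I interferon genes. IgG 4 did so in 4 of 20, 7 of 25 and 11 of 17, but in 21 of 27 and 16 of 27. For IgG 3 it was 0 of 20, 3 of 25 and 1 of 17, and 9 of 27 and 6 of 27. The class I list showed no such contrast, with 20 of 22 genes in IgG 1 and 21 of 22 in IgG 4. The pan-leukocyte score was 3.12 in IgG 1 and 2.01 in IgG 4, and the type I interferon score 4.28 and 4.79. The 2 libraries adjoin each other in the Ptprc order and share the treatment. No test was made of 2 single libraries. Of the 791 genes, 321 had IgG 1 and 252 had IgG 4 above the lowest high library, and with IgG 1 set aside 575 genes instead of 311 had no overlap on the higher side.

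**Figure D4:**
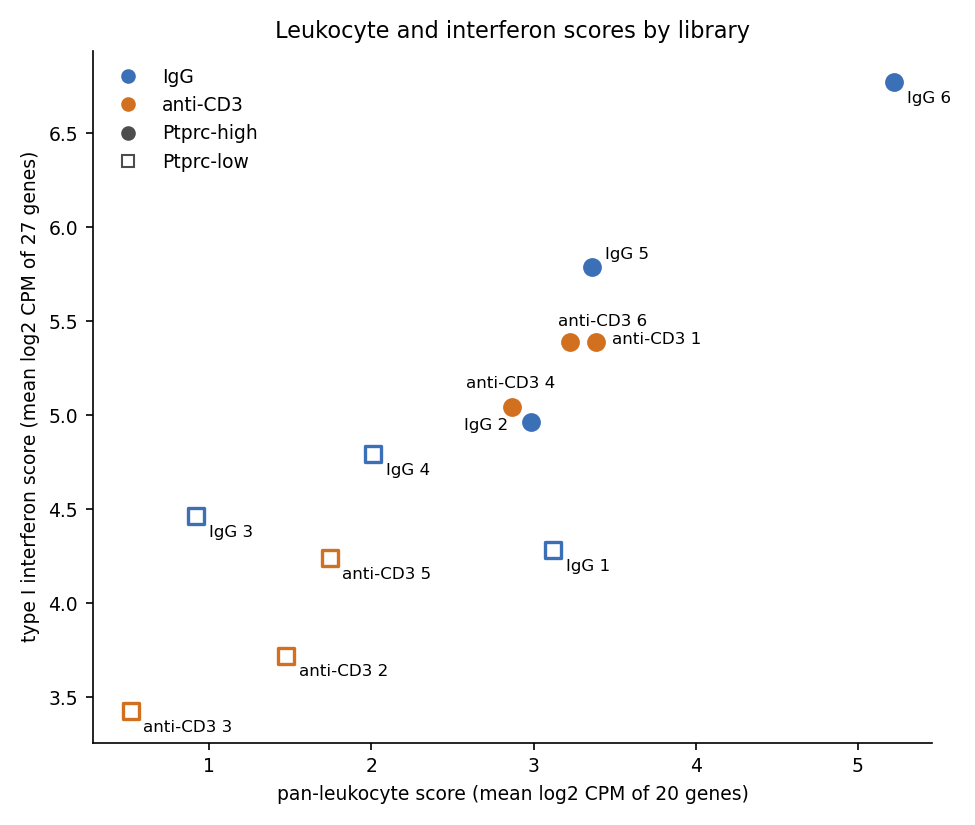
Each point is a library, placed by its pan-leukocyte score (mean log2 CPM of 20 genes) and its type I interferon score (27 genes), with filled circles for Ptprc-high and open squares for Ptprc-low. IgG 1 lies at 3.12 and 4.28, below every high library on the interferon axis although within their range on the leukocyte axis, and IgG 6 stands apart at 5.23 and 6.77.

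Genes of cell death and cytokine damage were higher in part. Of 22 genes 12 were higher and 18 were positive, with a median of 0.81, and without IgG 5 and IgG 6, 4 passed with a median of 0.69. Casp1, the inflammasome caspase, was at 2.29, 5.59 and 20.9 CPM against 0.460, 0.769 and 2.26 CPM (2.69 ± 0.51, SE), and Nos2, the inducible nitric oxide synthase, differed by 2.23 ± 0.57 (SE). Ripk3 differed by 1.37 ± 0.28 and the death receptor gene Fas by 1.18 ± 0.31 (SE). Most of these are also expressed by leukocytes, and which cells carried them was not tested. In the proliferation list 3 of 17 were higher, all 17 were positive and the median was 0.94, and without IgG 6, 0 passed. Mki67, a marker of dividing cells, differed by 1.44 ± 0.43 (SE) and did not pass.

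Hormone and beta cell lists had smaller median differences than the immune lists, and most beta cell identity genes were negative. Ins1 was at 2003, 2334 and 3129 CPM in the high libraries and 1831, 2317 and 4915 CPM in the low ones, a log2 difference of -0.15 ± 0.25, and Ins2 differed by -0.10 ± 0.25 (SE). Gcg, the glucagon gene of alpha cells, was at 3540, 5807 and 6298 CPM against 3082, 3507 and 5379 CPM (0.55 ± 0.23, SE). None of the 7 hormone genes passed. Of 21 beta cell identity genes 20 were negative, none passed and the median was -0.26, against -0.07 over all genes. Mafa, the factor of mature beta cells, was at 5.24, 7.41 and 12.9 CPM against 5.74, 13.2 and 28.5 CPM (-0.72 ± 0.32, SE). G6pc2, a glucose-6-phosphatase subunit of beta cells and an autoantigen in NOD mice, differed by -0.69 ± 0.29, Nkx6-1 by -0.44 ± 0.26 and Pdx1, both beta cell factors, by -0.26 ± 0.17 (SE). The high and low ranges overlapped in each. Across the 12 libraries the beta cell identity score had a Pearson r of -0.55 with log2 Ptprc. It was -0.66 over the 10 libraries without IgG 5 and IgG 6 and -0.45 without IgG 6 alone. For the hormone score r was 0.22, 0.04 and 0.08. As with the stroma score, this is a description. The median of the identity list was -0.12 in IgG and -0.45 in anti-CD3, and in the secretion list, where 0 of 18 passed, 0.05 and -0.41.

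Among stress genes, 22 of 26 members of the endoplasmic reticulum list were negative (median -0.13) and 1 was lower. That was Trib3, a pseudokinase induced by the integrated stress response, at 9.83, 20.2 and 35.1 CPM against 24.9, 38.5 and 66.2 CPM (-1.06 ± 0.28, SE). Ddit3, which encodes CHOP, differed by -0.10 ± 0.27 and the chaperone Hspa5 by -0.17 ± 0.19 (SE). In the list of genes linked to loss of beta cell identity, Hk1 and Ldha were higher at 1.01 ± 0.26 and 0.92 ± 0.26 (SE). They encode a hexokinase and a lactate dehydrogenase that beta cells keep low and leukocytes use. Without IgG 6, 0 of the 7 genes passed, and without IgG 5 and IgG 6, 1 was higher past the threshold. The respiratory chain list had a median of -0.004 and 0 of 23 passed.

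Acinar genes were negative in IgG and near 0 in anti-CD3. All 32 acinar genes were negative, none passed and the median was -0.44. The medians were -0.95 in IgG, where the high side held IgG 5 and IgG 6, and 0.06 in anti-CD3, and without those 2 libraries the pooled median was 0.004. The enzyme gene Cpa1 ran from 6376 to 38371 CPM on the high side and from 27821 to 40980 CPM on the low side. The 6 regenerating protein genes had a median of -0.59 (-0.71 in IgG and -0.51 in anti-CD3) and the 11 acinar regulators one of -0.43 (-0.65 and -0.19), and none passed. Without IgG 5 and IgG 6 these medians were -0.07 and -0.06.

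**Figure D5:**
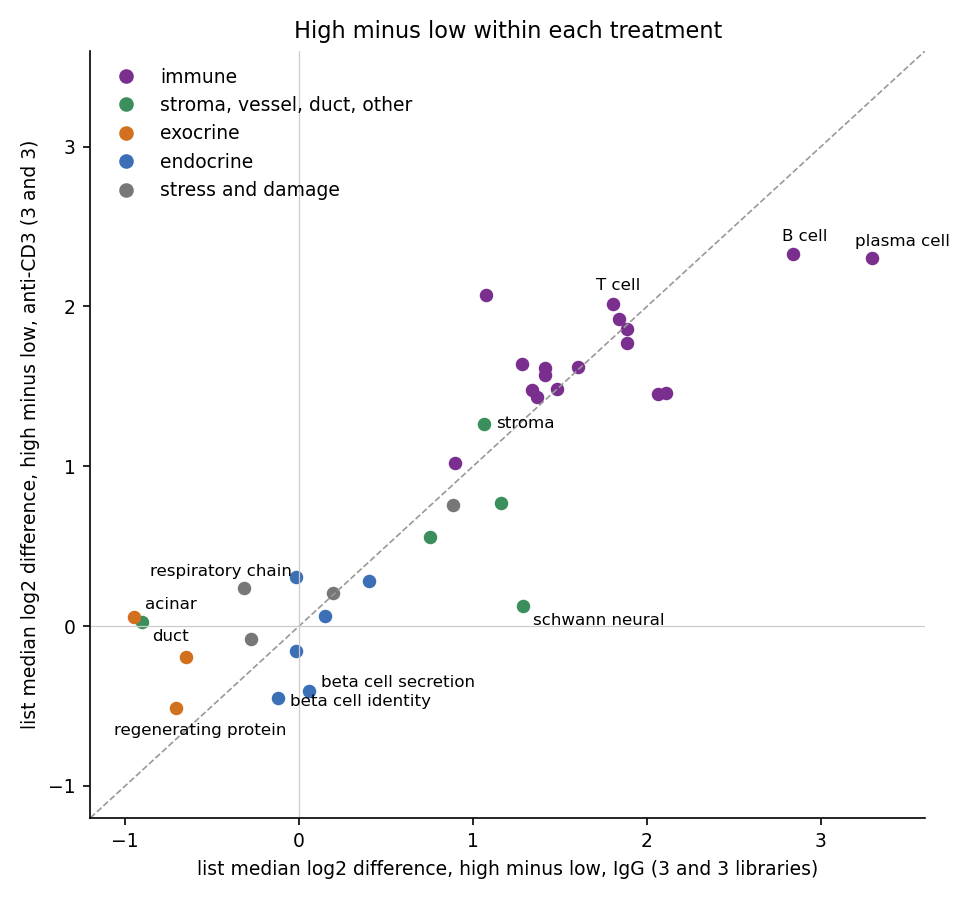
Each point is a gene list with at least 5 tested members, placed by the median log2 difference between high and low libraries within IgG (horizontal axis) and within anti-CD3 (vertical axis), 3 against 3 libraries in each, with equality dashed. Immune lists lie above 0 on both axes, between 0.90 and 3.29 in IgG, while the acinar list is at -0.95 in IgG and 0.06 in anti-CD3.

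Of the 30 lower genes, the 12 largest without overlap were as follows. Soat2, which esterifies cholesterol, was at 1.75, 3.18 and 6.11 CPM in the high and 6.20, 8.03 and 9.29 CPM in the low libraries (-1.21 ± 0.26, SE). Klrg2 (-1.16 ± 0.28), the transcription factor Tfcp2l1 (-0.92 ± 0.25) and Pcyox1l, a prenylcysteine oxidase-like protein (-0.90 ± 0.24, SE), followed. Nif3l1 (-0.79 ± 0.16), the scaffold Slc9a3r2 (-0.74 ± 0.19), Pusl1, a pseudouridine synthase-like protein (-0.70 ± 0.19), and Gatc, a subunit of the mitochondrial transamidase (-0.70 ± 0.19, SE), were also without overlap. So were Natd1 (-0.67 ± 0.17), the epithelial adaptor subunit Ap1m2 (-0.64 ± 0.18), the complex I assembly factor Timmdc1 (-0.63 ± 0.18) and Rnpepl1 (-0.54 ± 0.15, SE). None of the 12 was in an immune, endocrine or exocrine list, and of all 13115 tested genes 526 were in any list. In both treatments 30 of 30 were lower, and 2 at least 2-fold in both, counts that their choice from the same 12 libraries favours.

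Treatment was not used to divide the libraries, so anti-CD3 could be tested against IgG at a given side. The side was measured after treatment, and the contrast therefore compares libraries of like Ptprc rank and not treated with untreated mice as a whole. With side as covariate 12 genes rose in anti-CD3 (0.0915%) and 0 fell by edgeR at an adjusted p under 0.05, while 2975 were at an unadjusted p under 0.05. DESeq2 called 973, of which 424 fell, limma-voom 729, of which 242 fell, and edgeR with no filter on low counts 1560, of which 872 fell. None of the 12 belonged to an immune list, and these lists held 242 of the 13115 tested genes. Bnip3, a mitophagy receptor induced by hypoxia, was at 42.1, 65.7 and 62.3 CPM in anti-CD3 6, 1 and 4 and at 51.9, 43.9 and 25.9 CPM in anti-CD3 2, 5 and 3. In IgG 6, 2 and 5 it was at 18.3, 34.5 and 20.5 CPM and in IgG 1, 4 and 3 at 11.8, 19.2 and 13.2 CPM, so that within each side every anti-CD3 library lay above every IgG library. It rose by 1.34 ± 0.21 on the log2 scale (SE; edgeR adjusted p = 0.0232). Gadd45a, a stress-induced regulator of growth arrest, rose by 1.25 ± 0.22 and Ndufa6, a subunit of complex I, by 0.93 ± 0.16 (SE; edgeR adjusted p = 0.0401 for each). The linker histone genes Hist1h1c (2.08 ± 0.28) and H1f0 (1.71 ± 0.26) and Cox7b of cytochrome c oxidase (1.11 ± 0.16, SE) had an edgeR adjusted p of 0.0232 each. The median longest transcript was 1189.5 bases for the 12 and 3411 for all tested genes. With the acinar score as a covariate 0 genes passed, and without IgG 5 and IgG 6, 1 did.

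At a given side, no gene of an immune list passed between the treatments by edgeR with the filter on low counts. DESeq2 passed 14 of 27 interferon gamma, 8 of 27 type I interferon, 6 of 25 T cell and 6 of 20 pan-leukocyte genes, limma-voom 7, 3, 1 and 0, and edgeR with no filter 25, 21, 18 and 16. Of the 242 immune-list genes 228 were lower in anti-CD3 (94.2%, against 54.8% of all tested genes), 121 at an unadjusted p under 0.05, with a median log2 difference of -0.83. The median was -0.94 in the interferon gamma list (23 of 27 at an unadjusted p under 0.05), -0.77 in the type I interferon list and -1.14 in the T cell list, and 0.23 in the plasma cell list. Some adjusted p-values were close to the threshold. Cd274 differed by -1.21 ± 0.29 (SE; edgeR adjusted p = 0.0537), and 245 genes of all kinds had an adjusted p under 0.055. Ptprc itself differed by -1.18 ± 0.37 (SE; edgeR adjusted p = 0.0982), so division into 2 sides did not equalize it between the treatments. Without IgG 6 the medians were -0.62, -0.45 and -0.62, and with the acinar score as covariate -0.48, -0.32 and -0.31.

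Within the 6 high libraries 171 genes rose in anti-CD3 (1.3%) and 24 fell (0.183%; edgeR adjusted p under 0.05). Of the 171, 45 encode cytosolic ribosomal proteins, of 78 tested, and 26 are respiratory chain genes, of 99 tested. None was in an immune list, where 242 of all 13115 tested genes were. Lgals2, a galectin of the gut and pancreas, rose by 4.42 ± 0.91, the replication-dependent histone gene Hist1h4i by 2.32 ± 0.41, Angptl8, an inhibitor of lipoprotein lipase, by 2.13 ± 0.44 and Ddit3 by 1.85 ± 0.39 (log2, SE; edgeR adjusted p from 0.0364 to 0.0433). Cdca7, a gene of cycling lymphoid cells, fell by 2.90 (SE 0.67; edgeR adjusted p = 0.0476), Sema4d, a semaphorin of lymphocytes, by 1.40 (SE 0.30), and Col6a3 and Thbs1, matrix genes of stroma, by 1.35 (SE 0.32) and 1.32 (SE 0.27). The rising genes had a median longest transcript of 1144 bases and the falling ones of 5609. With an offset for transcript length, with the acinar score as covariate, and without IgG 5 and IgG 6, 0 genes passed. These 3 IgG libraries include the 2 with the lowest acinar shares, and the part of that in the result was not tested.

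Within the 6 low libraries 0 genes passed by edgeR (0%), with 708 at an unadjusted p under 0.05. The difference between sides was tested against treatment by the interaction, where 0 genes passed (0%; 564 at an unadjusted p under 0.05, and 0 by DESeq2 and by limma-voom). A high minus low difference that depends on the treatment was therefore not detected, and with 3 libraries in each of 4 cells its absence is not shown. For the interferon lists the medians in IgG and anti-CD3 were 1.37 and 1.43 (interferon gamma) and 1.48 and 1.48 (type I).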

How the data were processed

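The submitters' processing notes name Trimmomatic 0.36 for trimming, STAR 2.5.2b for alignment, GRCm38 (mm10), featureCounts of Subread 1.5.2 and DESeq2. The annotation, the strand setting and the handling of multimapping reads are details not given in the sources used here. Reads of antisense partners and close copies (Reg, histone, immunoglobulin, Ms4a, Gbp and ribosomal protein genes) may therefore be shared. Values in the deposited raw table are whole-number counts per gene. A second table of the authors gives, for each library, a normalized signal (counts over 1 size factor), used here only to rank Ptprc. Its log2 fold changes and p-values, as the authors deposited them, were not used.

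The 12 libraries were compared with edgeR 4.0.16 in R 4.3.3 (filterByExpr, minimum count 10, minimum total 15, TMM, robust quasi-likelihood F test, two-sided, Benjamini-Hochberg) with treatment and side as terms, or 4 cells of treatment by side. CPM are TMM-scaled, and scores use a prior count of 2. SE is the log2 difference over the root of F. The procedure was tested on simulated data. Symbols came from GENCODE M21 for 48970 genes. Of 39 gene lists, 35 had at least 5 tested members. The division, the lists and the named genes were chosen with earlier results of these data known. Named were the 12 largest differences each way without overlap at mean log2 CPM of at least 1 (without Ptprc, receptor segments, predicted genes and pseudogenes), 10 more each way in no list, 2 per list, up to 10 each way per treatment test, a panel, and the 10 genes most like Ptprc. Gbp5, Socs1, Glycam1, Madcam1 and Tubb3 were named after their values were seen. Some genes that the rule names are not reported here. Replicate numbers, which the labels do not tie to any pairing, were not used in the main fits. Correlations of same-numbered libraries ran from -0.29 to 0.55. They cannot show whether libraries were paired, since some numbers lie on the same side in both treatments and others do not. Alternatives were DESeq2 1.42.0, limma-voom (limma 3.58.1), other factors and filters, the acinar score as covariate, a replicate block, each library left out, and, added after seeing the data, a transcript length offset (lowess span 0.3).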

Additional observations from a re-analysis of the deposited data

Results flagged for a closer look

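Of 86 groups of 6 libraries checked, 3 held a library whose distance to the next was large for the range of its group, where chance gives about 1 in 20. The normalized Ptprc count of IgG 6 was 2339, against 729 in the next IgG library. The acinar regulator score of anti-CD3 5 was 5.63, with 5.27 in the next anti-CD3 library. The regenerating protein score of anti-CD3 5 was 10.05 and that of the next anti-CD3 library 8.82, among them Reg2 and Reg3b, which encode secreted proteins of stressed acinar cells. The column of anti-CD3 5 carries the prefix "added" in the deposited count table, which the sources used here do not explain, and it was among the Ptprc-low libraries.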

How the results depend on the processing

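No high minus low difference of a named gene turned direction under an alternative where either fit passed the threshold. Some differences near 0 that passed in neither fit did change sign. Ins1 went from -0.15 to as much as 0.17, Ins2 from -0.10 to 0.06 and Ddit3 from -0.10 to 0.20. Of the list medians, the acinar one had the other sign in 1 of 22 settings (0.004 without IgG 5 and IgG 6), that of granule genes in 3 of 23 and that of the respiratory chain, near 0, in 16 of 23. The 821 genes that differed between the sides became 1264 with DESeq2, 1886 with no filter on low counts and 2183 with log2 Ptprc as a continuous covariate, where 499 were negative and 818 of the 821 were shared. They became 166 with the acinar score as covariate, 238 without IgG 5 and IgG 6, 56 in IgG alone and 0 in anti-CD3 alone. Leaving out 1 library gave 450 to 1111, with 450 without IgG 3, 495 without IgG 4, 514 without IgG 6, and 522, 493 and 543 without anti-CD3 1, 3 and 6. With the replicate number as a block, which the labels do not tie to any pairing, the count was 4, and each library correlated best with its own number in 3 of 6 cases. The same block gave 10 for treatment at a given side. Without overlap were 355 genes, 365 to 679 when 1 library was left out (679 without IgG 1 and 554 without anti-CD3 4). The 12 genes of treatment at a given side, all higher, became 973 with DESeq2 (424 lower), 729 with limma-voom (242 lower), 1560 with no filter (872 lower), 238 with CPM above 1 in 6 libraries, 131 with exocrine genes removed, 0 with the acinar score and 1 without IgG 5 and IgG 6, and 0 to 617 without 1 library (0 without IgG 5 or anti-CD3 1, 5 or 6, 2 without IgG 1, 3 without IgG 4, 4 without IgG 3, 6 without anti-CD3 3 or 4, 480 without IgG 2, 617 without anti-CD3 2). With the length offset it was 12, of which 4 fell. The 195 genes within the high libraries (24 lower) became 852 with DESeq2 (263 lower), 1246 with limma-voom (406 lower), 1114 with no filter (458 lower) and 0 with the acinar score, with the length offset and without IgG 5 and IgG 6, and 0 to 1043 without 1 library (0 without IgG 3, 4, 5 or 6 or anti-CD3 1, 3 or 6, 295 without anti-CD3 4 and 1043 without IgG 2). The interaction gave 8 genes with no filter. The cause was not tested. Depth outside exocrine genes was as low as 2601540 counts, which limits the rarer immune genes.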

Other observations

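In each of the neural and duct lists 1 gene passed the threshold, where 6.03% of all tested genes were higher. Without IgG 5 and IgG 6, 0 genes of either list were higher past it. In the Schwann and neural list 5 of 6 tested genes were positive and 1 was higher in the Ptprc-high libraries, Uchl1, a deubiquitinase of neurons and endocrine cells, at 2.82, 7.83 and 19.3 CPM (lowest, median and highest) against 1.84, 3.70 and 4.28 CPM, a log2 difference of 1.40 ± 0.36 (SE, n = 6 per side). Ngfr, the low-affinity nerve growth factor receptor, differed by 1.62 in IgG and 0.09 in anti-CD3, and did not pass. In the duct list 11 of 13 were negative (median -0.44) and 1 was higher, Car2, a carbonic anhydrase of ducts and also of blood cells, at 2.40 ± 0.67 (SE), while the duct keratin Krt19 was at 17.7, 121 and 215 CPM against 123, 172 and 226 CPM (-0.68 ± 0.38, SE).

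Taken as a continuous measure, log2 Ptprc had 1684 of 13115 genes with a positive slope past the threshold, against the 791 that were higher by side. A negative slope past it was found in 499, against the 30 that were lower by side. The 499 included 5 of 26 endoplasmic reticulum stress genes, 2 of 21 beta cell identity genes and 1 of 11 acinar regulators. They also included 1 of 14 granule genes and 1 of 13 duct genes, and 0 of 32 acinar and 0 of 7 hormone genes. In the Schwann and neural list 3 of 6 had a positive slope past it, Uchl1, Ngfr and Tubb3. All 27 genes of each interferon list and all 20 pan-leukocyte genes had a positive slope past the same threshold. The slope of a list is per doubling of Ptprc, with a median of 1.06 for B cell genes, 0.78 for T cell genes and 0.49 for type I interferon genes. These are descriptions, since Ptprc is a gene of the same libraries.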
